A study of Mus musculus with 11 samples.

Results

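Cwc22, Rps3a, Gm5148, Odc1 and Apoa2 are 5 of the 22609 genes with a row in a table of read counts from mouse tissue labelled as cerebellar hemisphere, and their rows were followed here over all 11 libraries. They were chosen from measured values: each stood apart from control and from the double knockout in 1 or both single knockouts, and reads of several of them can also come from near-identical copies elsewhere in the genome. The comparisons of NFKO and AnkGKO with control and with DKO are therefore given as descriptions without a test. The same choice made a small difference between DKO and control likely from the start, so p-values for that comparison are not independent evidence. Polyadenylated RNA was sequenced in bulk from 3 control, 3 NFKO, 2 AnkGKO and 3 DKO libraries, labelled as biological replicates of mixed sex on a C57BL/6J or mixed C57BL/6J;129 background. NFKO mice were Pcp2-Cre;NfascFx/Fx, AnkGKO mice were Pcp2-Cre;AnkGFx/Fx and DKO mice carried Pcp2-Cre with both floxed genes. By the paper's methods control mice were littermates with floxed alleles of 1 or both genes and no Cre, so that floxed alleles were common to all groups and Cre to the 3 knockouts. The Pcp2 promoter drives Cre mainly in Purkinje cells, a small part of the cells of a cerebellar hemisphere, and the mice were untreated and 30 or 32 days old, depending on the label.

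Cwc22 is a splicing factor that brings Eif4a3, the anchor of the exon junction complex, to the spliceosome, and mouse genomes are known to differ in how many copies of its segment they carry. Rps3a encodes a protein of the small (40S) ribosomal subunit, a gene class that has left many processed pseudogenes, which are intronless copies made by reverse transcription. Odc1 encodes ornithine decarboxylase, the rate-limiting enzyme of polyamine synthesis, Apoa2 encodes an apolipoprotein of high-density lipoprotein made mainly in the liver, and Gm5148 is a predicted gene without a known function.

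Every sequence that follows comes from GRCm39, the build named in the submitters' processing notes, and positions are those of GENCODE vM39. Cwc22 lies at chr2:77711503-77776736 on the minus strand, and its closest copies, Cwc22rt1 to Cwc22rt7, stand in a row on the same chromosome, each start 5810 bases after the last. All 7 match the Cwc22 coding sequence over its whole length at 96.97% identity. The pair below shows, 5′ to 3′, the 100 coding bases where Cwc22 and Cwc22rt1 differ most, the length of 1 read, with the 8 bases that differ in capitals. The first sequence is chr2:77759719-77759818 on the minus strand, coding bases 228 to 327, and the second is chr2:83786267-83786366 on the plus strand.
Cwc22: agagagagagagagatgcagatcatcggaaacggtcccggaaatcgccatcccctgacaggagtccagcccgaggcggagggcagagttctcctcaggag
Cwc22rt1: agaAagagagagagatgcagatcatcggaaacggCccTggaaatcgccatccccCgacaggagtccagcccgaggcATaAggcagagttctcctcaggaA
The count table has no row under these 7 names. It has 7 rows, Gm13691 and Gm13693 to Gm13698, whose genes on the older RefSeq assembly GRCm38.p6 have the same length (3054 bases) and spacing on chromosome 2, and all 7 rows are listed at 0 in every library. Reads aligned to more than 1 place have a separate line in the count table. A 0 in the row of a near-identical copy thus does not show whether that copy is transcribed.

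Rps3a, listed as Rps3a1 in the annotation, lies at chr3:86045244-86050009 on the minus strand. Its coding sequence had 8 copies that covered at least 80% of it at 90% identity or more, between 94.2% and 99.5% identical, and no copy had a row in the count table. The stretch below is the one where Rps3a differs most from its closest copy, Rps3a2, and even there 2 bases of 100 differed. It is chr3:86045795-86045894, coding bases 569 to 668, beside chr14:88360577-88360676 (minus strand), chr13:108807705-108807804 (plus strand) and chr7:16453168-16453267 (minus strand), with the bases that differ from Rps3a in capitals.
Rps3a: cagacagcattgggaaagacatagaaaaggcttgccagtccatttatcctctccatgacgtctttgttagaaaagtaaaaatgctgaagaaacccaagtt
Rps3a2: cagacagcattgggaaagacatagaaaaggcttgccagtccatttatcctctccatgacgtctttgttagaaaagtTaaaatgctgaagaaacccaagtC
Rps3a3: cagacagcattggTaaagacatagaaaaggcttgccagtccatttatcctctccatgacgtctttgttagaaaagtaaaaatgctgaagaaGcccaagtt
Gm5586: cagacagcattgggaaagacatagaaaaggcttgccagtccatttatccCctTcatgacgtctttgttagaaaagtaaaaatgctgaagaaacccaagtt
Rps3a2 and Gm5586 are annotated as processed pseudogenes and Rps3a3 as a transcribed one.

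Odc1, at chr12:17594383-17601507 on the plus strand, had 10 copies of the same kind at 91.8% to 97.2% identity. One of them, the transcribed pseudogene Gm15645, had a row in the count table, which was listed at 0 throughout. The sequences below are chr12:17597951-17598050 of Odc1, coding bases 277 to 376, and chrX:101768980-101769079 (minus strand) of the pseudogene Gm9115, again with the differing bases in capitals.
Odc1: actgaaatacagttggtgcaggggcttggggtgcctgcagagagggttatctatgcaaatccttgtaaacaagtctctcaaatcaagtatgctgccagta
Gm9115: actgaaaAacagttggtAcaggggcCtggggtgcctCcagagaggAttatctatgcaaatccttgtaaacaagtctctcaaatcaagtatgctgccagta
Gm5148, at chr3:37767431-37778667 on the minus strand, had no copy of its whole coding sequence. Its transcript, however, matched the exons of Rps23, a gene for another 40S protein on chromosome 13, between transcript bases 315 and 709, at 99.15% to 100% identity and in antisense orientation. The match is the processed pseudogene Rps23-ps1, which overlaps the coding exon of Gm5148 on the opposite strand. The 100 bases below, chr3:37768923-37769022 and chr13:91071736-91071835, were identical, both read on the minus strand.
Gm5148: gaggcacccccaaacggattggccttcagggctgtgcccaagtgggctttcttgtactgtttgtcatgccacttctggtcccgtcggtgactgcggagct
Rps23: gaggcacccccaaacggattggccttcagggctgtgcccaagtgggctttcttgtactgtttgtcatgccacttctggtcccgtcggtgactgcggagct
Apoa2, at chr1:171049125-171053948 on the plus strand, had no such copy.

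To compare the genes by 1 measure, each annotated main transcript was divided into all its overlapping 50-base words. The share of words that also occurred elsewhere in the genome was 78.8% for Rps3a, 57.2% for Odc1, 39.8% for Cwc22, 17.9% for Gm5148 and 0% for Apoa2. With 100-base words, the read length in the labels, the order was the same and the shares were 53.9%, 30.2%, 17.9%, 12.4% and 0%. An antisense RNA gene, Gm71631, overlaps Apoa2 at its own locus and holds 39.9% of its 50-base words. The library kit kept strand, and whether the counting used it is not given in the sources used here.

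**Figure D1:**
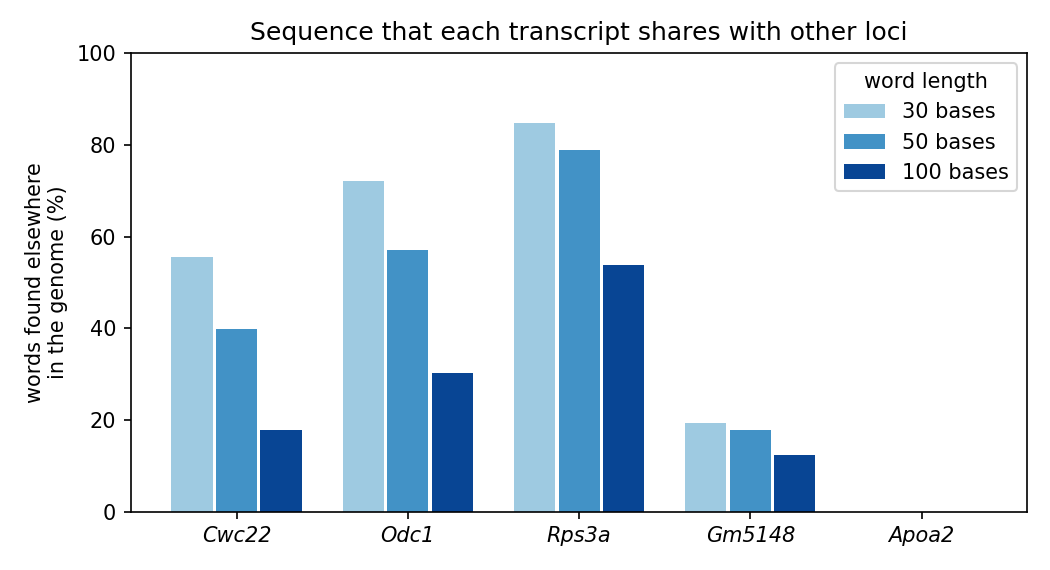
Percent of the words of 30, 50 and 100 bases in each gene's main transcript that also occur elsewhere in GRCm39 (y axis) for the 5 genes (x axis). Rps3a has the tallest bars at each word length, and Apoa2 is at 0 at each.

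Reads counted on genes numbered 38890851 to 55822361 per library, which makes 3 counts equal to 0.0546 to 0.078 CPM (counts scaled to 1000000 per library with edgeR's TMM normalisation), a floor that covers counting error only. Reads aligned to more than 1 place, a separate line of the count table, equalled 56.9% and 57.2% of the gene counts in AnkGKO, 58.7% to 59.0% in DKO, 59.8% to 61.0% in NFKO and 59.9% to 60.3% in control. The AnkGKO values were thus below all others, and their part in the results below was not tested. Group levels are given as mean ± SD, with n = 3 in control, NFKO and DKO and n = 2 in AnkGKO throughout. Ank3, the AnkG gene, was at 363 ± 11.1 CPM in the control group and 392 ± 12.4 in NFKO but at 178 ± 31.4 in AnkGKO and 173 ± 12.7 in DKO, lower in both groups labelled as lacking AnkG, whereas whole-gene counts of Nfasc overlapped between NFKO (653 ± 41.8 CPM) and control (690 ± 28.4 CPM). The summed level of 8 Purkinje cell markers was 3177 CPM in control replicate 1, 3026 in NFKO replicate 1 and 1963 to 2317 elsewhere, and that of Pcp2 alone was 26.3, 28.3 and at most 2.14 CPM. Gabra6 of granule cells was at 84.2 CPM in control replicate 1, 59.0 in NFKO replicate 1 and at most 4.41 in the other 9 libraries. In those 9 libraries the summed level of 12 Hox genes of caudal nervous tissue (395.5 to 615.3 CPM) exceeded that of 8 granule cell genes (123 to 201.4 CPM), so that these markers went against the labelled tissue there. The Hox sum was in the same range in control replicate 1 (532.2 CPM) and NFKO replicate 1 (582.2 CPM). Granule cell genes in these 2 libraries summed to 667.9 and 569.5 CPM. Xist, which is transcribed from the inactive X chromosome of females, was at 0.344 to 1.39 CPM in all 5 single-knockout libraries and at 0.428 in control replicate 3, but at 464 and 598 in control replicates 1 and 2 and at 28.4 to 469.5 in DKO, so that the single knockouts showed no sign of the mixed sex in the labels. Control replicate 3, low in Xist like them, held 26.4 CPM of Rps3a and no Apoa2 count, apart from all 5 of them. These are values of 1 library, and the part of sex in the levels of the 5 genes was not tested. Differences between genotypes in the number of cells of a type and in RNA per cell cannot be told apart in bulk tissue.

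Cwc22 was 5.60 to 5.82 times as high in AnkGKO as in the other genotypes by their means. AnkGKO replicates 1 and 2 held 50.98 and 56.7 CPM. Control replicates 1 to 3 held 9.31, 9.90 and 9.64 CPM, the NFKO replicates 9.81, 8.71 and 9.23 CPM, and the DKO replicates 9.99, 8.99 and 9.25 CPM. The libraries of these 3 genotypes overlapped one another, and both AnkGKO libraries lay far above all 9. In raw counts this was 2471 and 2612 in AnkGKO beside 358 to 513 elsewhere. Mean levels were 53.9 ± 4.07 CPM in AnkGKO, 9.62 ± 0.300 in control, 9.25 ± 0.554 in NFKO and 9.41 ± 0.517 in DKO. The fitted log2 fold change of AnkGKO was 2.48 against control (standard error 0.092) and 2.54 against NFKO (standard error 0.092), and that of DKO against AnkGKO was -2.52 (standard error 0.092). Libraries of AnkGKO lay above those of control without overlap in 11.7% of all 17557 genes tested.

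In DKO, where both genes were targeted, the Cwc22 level did not differ detectably from that of control, which the choice of genes made likely. The log2 fold change of DKO against control was -0.03 (95% confidence interval -0.22 to 0.15, Benjamini-Hochberg adjusted p = 0.944 from the quasi-likelihood test of edgeR). Among the 5 genes edgeR and DESeq2 called 0 in DKO against control (1 at an unadjusted p under 0.05 with either), where edgeR called 0.0228% of the genes tested. Between NFKO and control the Cwc22 log2 fold change was -0.06 (standard error 0.084).

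The partners of Cwc22 were not called with it. Of 28 genes listed for the exon junction complex, nonsense-mediated decay and the spliceosome steps around Cwc22, 0 were called in AnkGKO against control by edgeR or by DESeq2 (0 at an unadjusted p under 0.05 with edgeR), and the median log2 fold change of the list was -0.02 beside -0.0050 over all genes. A gene was called here at an adjusted p under 0.05 with a log2 fold change of 0.6 or more in either direction. Of all genes tested, 0.165% met this in AnkGKO against control, 0.365% in NFKO against control, 0.0228% in DKO against control, 0.615% in DKO against NFKO, 0.171% in DKO against AnkGKO and 0.404% in AnkGKO against NFKO. Over all 17557 genes, an unadjusted p under 0.05 was reached with edgeR by 946 in AnkGKO against control and 1351 in NFKO against control. The number was 1365 in DKO against control, 2836 in DKO against NFKO, 1488 in DKO against AnkGKO and 1339 in AnkGKO against NFKO. Prpf8, the central scaffold of the spliceosome, had 314 ± 15.9 CPM in AnkGKO and 305 ± 8.27 in control. Rnps1, a peripheral component of the exon junction complex, was the only gene of this list called in any comparison, and it fell in NFKO: 10.7 ± 0.827 CPM beside 22.4 ± 0.484 in control, which is -1.06 on the log2 scale (standard error 0.080, edgeR adjusted p = 7.47e-05). In AnkGKO, where Cwc22 was high, Rnps1 was at 20.4 ± 0.829 CPM, and in DKO at 22.9 ± 0.881. Rnps1 lies on chromosome 17, not beside any of the 5 genes. The summed level of 5 meningeal fibroblast markers was also set apart in NFKO, at 446 to 1397 CPM beside 134 to 378 in control, 142.5 and 351 in AnkGKO and 95.1 to 324 in DKO, and its part in the NFKO levels of Rnps1, Rps2 and Tmem144 was not tested.

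Odc1, like Cwc22, was high in AnkGKO, by a smaller factor. Its level was 23.8 and 26.5 CPM in AnkGKO replicates 1 and 2. It was 11.2, 11.6 and 10.3 CPM in control replicates 1 to 3, 11.1, 12.7 and 12.8 in NFKO and 15.3, 11.7 and 12.8 in DKO. Both AnkGKO libraries thus exceeded the other 9, among which DKO replicate 1 was the highest. The log2 fold change of AnkGKO was 1.19 against control (standard error 0.12) and 1.05 against NFKO (standard error 0.12), and DKO minus AnkGKO was -0.92 (standard error 0.12). In DKO against control it was 0.27 (95% confidence interval 0.02 to 0.51). All 3 DKO libraries lay above all control libraries, as in 7.65% of genes tested, but the difference did not pass adjustment (edgeR adjusted p = 0.621). NFKO overlapped control and differed from it by 0.15 on the log2 scale (standard error 0.11).

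Other genes of polyamine metabolism were not called. Of 23 listed genes 18 were tested, and 0 were called in any of the 6 comparisons by edgeR or DESeq2 (at an unadjusted p under 0.05, 0 with edgeR in AnkGKO against control and at most 2 in any other). Azin1, the antizyme inhibitor that keeps ornithine decarboxylase from degradation, was at 216 ± 5.62 CPM in AnkGKO and 200.1 ± 10.5 in control. Eif5a, the translation factor that carries the spermidine-derived residue hypusine, was at 129.5 ± 1.48 and 132 ± 2.68 CPM in the same groups, Sms, the spermine synthase, at 98.6 ± 1.89 and 95.6 ± 6.70, and Atp13a2, a lysosomal polyamine exporter, at 289.8 ± 16.8 and 294 ± 11.4 CPM. The list's median log2 fold change in AnkGKO against control was -0.0036, beside -0.0050 over all genes.

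Rps3a was low in both single knockouts and at the level of control in DKO. Control replicates 1 to 3 held 815, 1259 and 1110 counts (21.2, 25.3 and 26.4 CPM), and the DKO replicates held 1039, 977 and 1453 (24.2, 22.8 and 26.4 CPM). In NFKO 100, 29 and 86 counts remained (1.91, 0.559 and 1.60 CPM), and in AnkGKO 18 and 19 (0.371 and 0.413 CPM). No library of a single knockout came near those of control or DKO, and the AnkGKO libraries lay below the lowest NFKO library. Means were 24.3 ± 2.77 CPM in control, 24.5 ± 1.83 in DKO and 1.36 ± 0.709 in NFKO, and 0.392 ± 0.0292 in AnkGKO. The control mean was 17.9 times that of NFKO and 62.0 times that of AnkGKO. Fitted log2 fold changes were -4.16 (standard error 0.33) for NFKO and -5.95 (standard error 0.46) for AnkGKO against control, whereas that of DKO was 0.01 (95% confidence interval -0.61 to 0.63, edgeR adjusted p = 0.995). Without the granule-marker-rich control replicate 1 and NFKO replicate 1 these values were -4.58, -6.04 and -0.079, and the log2 fold changes against control of Cwc22 and Odc1 in AnkGKO were then 2.46 and 1.20. With Xist as covariate the Rps3a values were -4.25, -6.04 and 0.04, and those of Cwc22 and Odc1 in AnkGKO were 2.45 and 1.19. Libraries of NFKO and of AnkGKO lay wholly below control in 6.51% and 12.3% of the genes tested. Those of AnkGKO lay wholly below NFKO in 12.1%.

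Within the single knockouts, Rps3a was 3.46-fold higher in NFKO than in AnkGKO by their means. The log2 fold change of AnkGKO against NFKO was -1.79 (95% confidence interval -2.82 to -0.76) and did not pass adjustment with edgeR (adjusted p = 0.240). It passed with DESeq2 (adjusted p = 0.0103), and with edgeR when NFKO replicate 2, the lowest NFKO library, was left out (adjusted p = 0.000614). Each AnkGKO library, with 18 and 19 counts, was above the floor of 3.

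**Figure D2:**
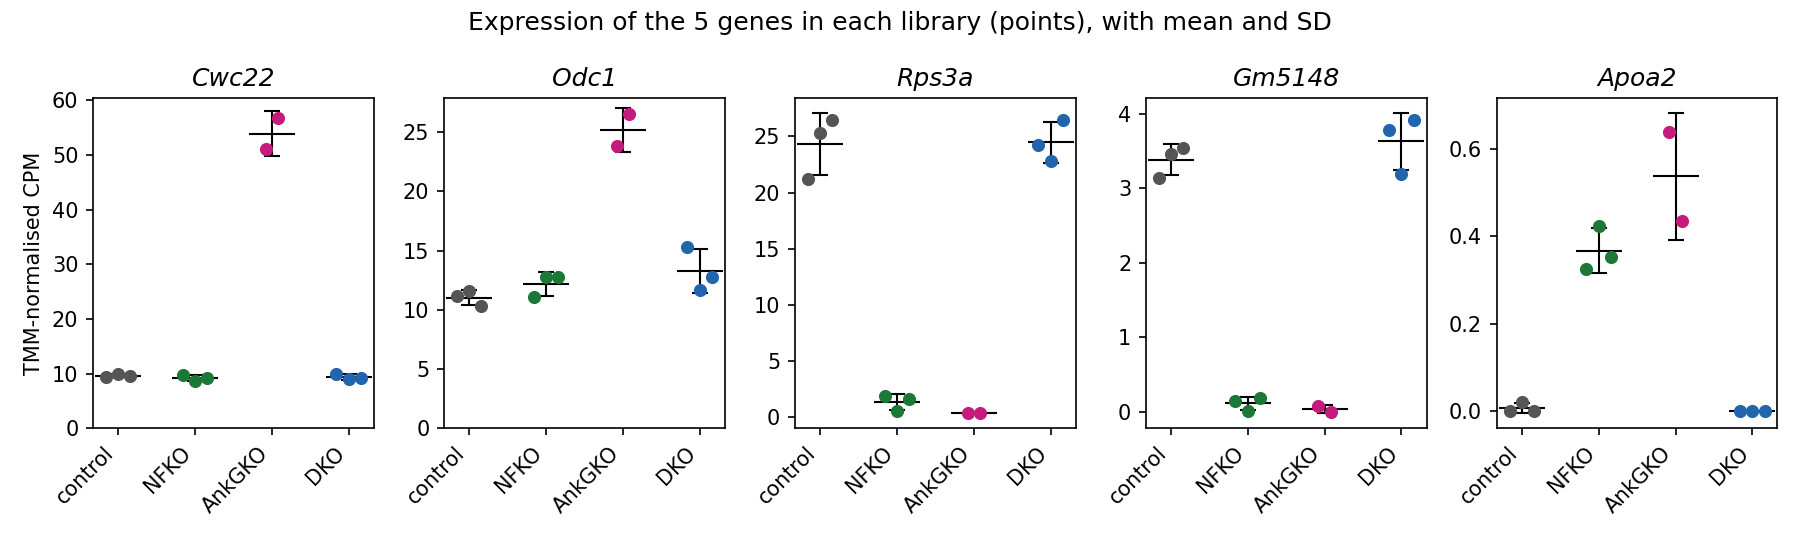
TMM-normalised CPM (y axis, a separate linear scale for each gene) of the 5 genes by genotype (x axis), with points for libraries, long bars for group means and whiskers for SD. Cwc22 and Odc1 stand high in the 2 AnkGKO libraries alone, Rps3a and Gm5148 are low in the 5 single-knockout libraries, and Apoa2 is above the floor in those 5.

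The other proteins of the small subunit gave no such loss in AnkGKO. Of 32 listed genes 31 were tested, and 0 were called in AnkGKO against control by either tool (1 at an unadjusted p under 0.05 with edgeR). In NFKO against control, where 0.365% of all genes were called, Rps2 was the single listed gene called, and it fell: 4.74 ± 1.66 CPM beside 20.0 ± 0.184 in control, a log2 fold change of -2.07 (standard error 0.20, edgeR adjusted p = 0.000525). Rps2 encodes a core 40S protein and lies on chromosome 17, 0.292 Mb from Rnps1, and it was at 19.1 ± 0.695 CPM in AnkGKO and 22.3 ± 2.33 in DKO. Rps3, whose protein sits near the entry site of the mRNA, had 237 ± 19.3 CPM in control and 237 ± 25.3 in NFKO, beside 220 ± 38.6 in AnkGKO.

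Levels of different genes were compared per kb of the main transcript. In control, Rps3a stood at 24.9 CPM per kb, rank 10 of 33 genes of the small subunit, and in DKO at 25.1, again rank 10. It fell to rank 24 in NFKO (1.39 CPM per kb) and to rank 30 in AnkGKO (0.401 CPM per kb). In control the other 32 ranged from 0.00847 to 194 CPM per kb with a median of 5.10, although the proteins of a ribosome are known to be made in equal numbers. Of the 32, 9 were under 1 CPM per kb in control. Rps23, whose sequence Gm5148 carries, was the lowest, with 2 counts over all 11 libraries.

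**Figure D3:**
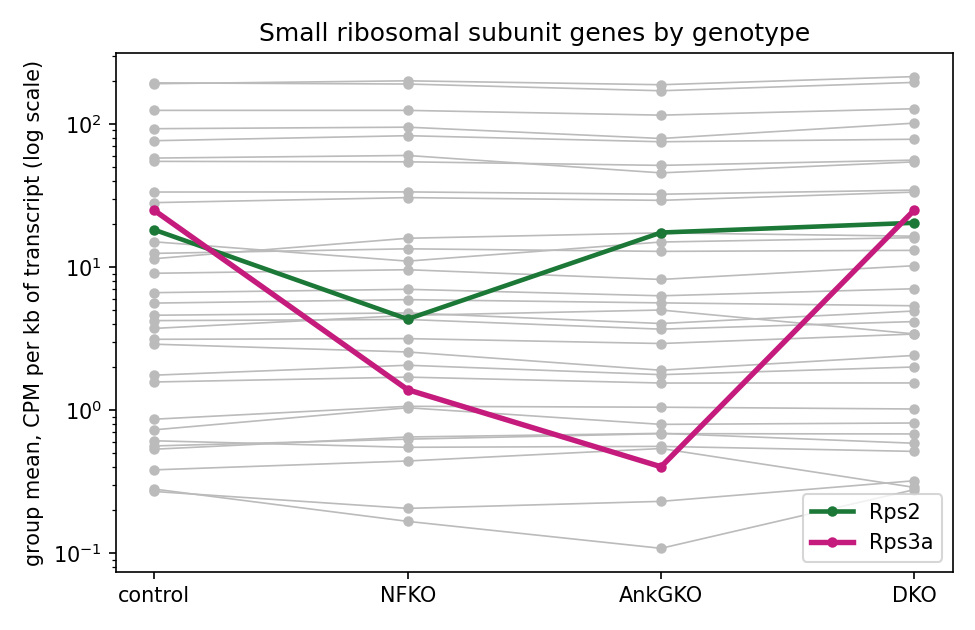
Mean CPM per kb of transcript (y axis, log scale) of 32 small subunit genes in each genotype (x axis), 1 line per gene, with Rps3a and Rps2 coloured and Rps23, listed at or near 0, left out. The line of Rps3a drops from 24.9 in control to 1.39 in NFKO and 0.401 in AnkGKO and stands at 25.1 in DKO, and that of Rps2 drops in NFKO.

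Gm5148 had the pattern of Rps3a at a lower level. It had 121, 172 and 149 counts in control replicates 1 to 3 and 162, 137 and 215 in DKO, beside 8, 1 and 10 in NFKO and 4 and 0 in AnkGKO. All 5 single-knockout libraries lay far below control, and 2 of them were under the floor of 3 counts. Mean levels were 3.38 ± 0.212 CPM in control, 3.63 ± 0.379 in DKO and 0.119 ± 0.0882 in NFKO and 0.0413 ± 0.0584 in AnkGKO. Summed over libraries and scaled to depth, control had 28.2 times the counts of NFKO (95% exact interval 17.9 to 47.4) and 80.2 times those of AnkGKO (31.1 to 295.8), intervals that cover counting error only. The log2 fold change of DKO against control was 0.10 (95% confidence interval -0.75 to 0.95, edgeR adjusted p = 0.964). AnkGKO and NFKO overlapped, and their log2 difference of -1.45 did not pass (95% confidence interval -3.37 to 0.47, edgeR adjusted p = 0.779).

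For each 100 counts on Rps3a there were 13.4 to 14.85 counts on Gm5148 in control and 14.0 to 15.6 in DKO. The NFKO libraries had 8, 3.45 and 11.6, and the AnkGKO libraries 22.2 and 0, from at most 10 counts of Gm5148 each. NFKO replicate 2 was the lowest of its group in both genes. The 2 genes lie 48.27 Mb apart on chromosome 3 and matched different 40S genes in the genome, Rps3a its own copies and Gm5148 the copies of Rps23.

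Apoa2 was the reverse of Rps3a: detected in every single-knockout library and at or near 0 in all others. AnkGKO held 31 and 20 counts (0.640 and 0.434 CPM) and NFKO 17, 22 and 19 (0.325, 0.424 and 0.353 CPM), against 0, 1 and 0 in control and 0 in all 3 DKO libraries. The 5 single-knockout libraries did not overlap the other 6, where 7.42% of all genes tested lay higher without overlap in NFKO than in control and 11.7% in AnkGKO than in control, and Apoa2 passed the filter of 10 counts only through them. Against DKO, at 0, the lower limit of the 95% exact interval of the ratio was 13.55 in NFKO and 19.8 in AnkGKO, for counting error only. Against the single count in control, the ratio was 47.8 in NFKO (95% exact interval 8.24 to 1919) and 70.2 in AnkGKO (12.05 to 2828), for counting error only. No fold is given between DKO and control, which were both at or under the floor. AnkGKO exceeded NFKO 1.46-fold by the means, 0.537 ± 0.145 against 0.367 ± 0.0508 CPM, which did not pass (log2 fold change 0.55, 95% confidence interval -0.50 to 1.60, edgeR adjusted p = 0.873).

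Alb, the albumin gene and the defining marker of hepatocytes, had at most 4 counts in any library, and the summed level of 8 hepatocyte markers, of which 5 passed the filter, was 0.825 to 7.07 CPM in control, 1.02 to 2.77 in NFKO, 0.652 and 0.887 in AnkGKO and 0.770 to 1.71 in DKO. Ttr, also listed for the choroid plexus, made up 6.29 of the 7.07 CPM in control replicate 1. Of the 8 markers, 4 to 6 were at 0 in the control libraries, 2 in each NFKO library and 4 or 5 in DKO. In AnkGKO replicates 1 and 2 the number at 0 was 1 and 5. In every library 5 or 6 of the 8 held at most 3 counts. The part of these markers in the level of Apoa2 was not tested. Apoa1, the main protein of the same lipoprotein, had 0.391 and 0.557 CPM in AnkGKO, 0.440 to 0.557 in NFKO, 0.286 to 0.780 in control and 0.304 to 0.619 in DKO, so that the genotypes overlapped. Of 22 listed apolipoprotein and lipoprotein genes 18 were tested, and edgeR called 0 in each of the 6 comparisons (1 to 5 at an unadjusted p under 0.05), while DESeq2 called Apoc1 in DKO against control and in DKO against NFKO. The highest number with edgeR, 5 of 18, was in DKO against control and in DKO against NFKO. Of all 17557 genes, 1365 and 2836 reached that unadjusted p in these comparisons, a smaller share each time. Apoe, the chief lipoprotein carrier of the brain, was at 1823 ± 88.8 CPM in DKO, 1681 ± 247 in AnkGKO, 1492 ± 80.6 in NFKO and 1503 ± 73.0 in control. All DKO libraries were above all control libraries, but the difference did not pass adjustment (edgeR adjusted p = 0.568). Of 5 listed erythroid markers, Alas2, the first enzyme of heme synthesis in red blood cells, alone had counts, while the globin genes Hba-a1 and Hba-a2 were listed at 0 and the other 2 had no row. It was at 20.8 and 37.3 CPM in AnkGKO and 30.7 to 34.0 in NFKO, beside 12.2 to 16.5 in control and 12.7 to 25.3 in DKO. Alas2 was thus higher in every single-knockout library than in every control library, with an overlap between AnkGKO and DKO, and its part in the level of Apoa2 was not tested.

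**Figure D4:**
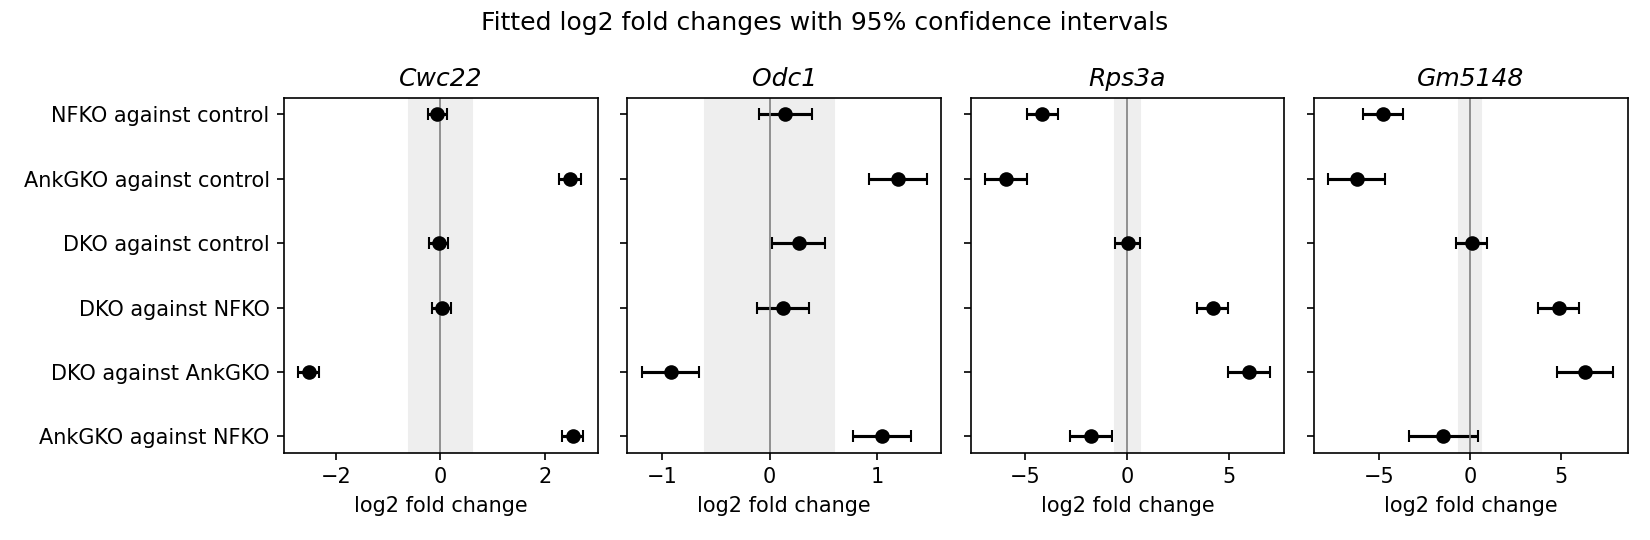
Fitted log2 fold change (x axis) with its 95% confidence interval for 4 genes in 6 comparisons (y axis), the band marking less than 0.6 in either direction. Rps3a and Gm5148 lie near 0 in DKO against control and beyond 4 in size in each comparison of a single knockout with control or DKO. Apoa2 is left out because control and DKO are at or near 0.

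Genes beside each of the 5 were examined within 1 Mb on either side. Near Rps3a, 8 genes were tested, and in NFKO against control their log2 fold changes stayed between -0.08 and 0.10 while that of Rps3a was -4.16. In AnkGKO against control they lay between -0.44 and 0.54, and 0 were called by edgeR or DESeq2 (2 at an unadjusted p under 0.05 with edgeR). Near Cwc22, 6 genes were tested and 0 called in AnkGKO against control by either tool (1 at an unadjusted p under 0.05), and their median log2 fold change was -0.35. Zfp385b, 61.5 kb from Cwc22, differed by -0.47 on the log2 scale (standard error 0.20, edgeR adjusted p = 0.861). Near Odc1, 11 genes were tested and 0 called in AnkGKO against control by either tool (2 at an unadjusted p under 0.05), with a median of 0.07. Near Apoa2, 50 genes were tested, and edgeR called 0 in either single knockout against control (8 at an unadjusted p under 0.05 in NFKO and 12 in AnkGKO), while DESeq2 called Fcgr3 in AnkGKO. Over all 17557 genes, 1351 and 946 reached that unadjusted p with edgeR, a smaller share than among these 50. Copa, 856.1 kb away, was past the adjusted p but not the fold threshold with edgeR, at 0.30 on the log2 scale in NFKO (edgeR adjusted p = 0.0292) and 0.43 in AnkGKO (edgeR adjusted p = 0.0101). Copa is also the gene most correlated with Apoa2, given below, so these p-values are not independent evidence.

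Gm5148 had the only neighbour that edgeR called. Cetn4, a centrin gene of ciliated cells 400.5 kb away, fell from 2.63 ± 0.356 CPM in control to 1.16 ± 0.164 in NFKO, a log2 fold change of -1.18 (standard error 0.19, edgeR adjusted p = 0.0158). This call was lost without control replicate 2 (edgeR adjusted p = 0.0837), without NFKO replicate 1 (edgeR adjusted p = 0.0887) or without NFKO replicate 2 (edgeR adjusted p = 0.0685). The log2 fold change was then -1.06, -1.09 and -1.16. Another call of Cetn4 was in DKO against NFKO (log2 fold change 1.32, edgeR adjusted p = 0.00584). Cetn4 was at 1.52 ± 0.214 CPM in AnkGKO (edgeR adjusted p = 0.339 against control) and 2.91 ± 0.258 in DKO. Its mean was thus lower in both single knockouts than in control and DKO, as for Gm5148, but the difference between AnkGKO and control did not pass the test.

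**Figure D5:**
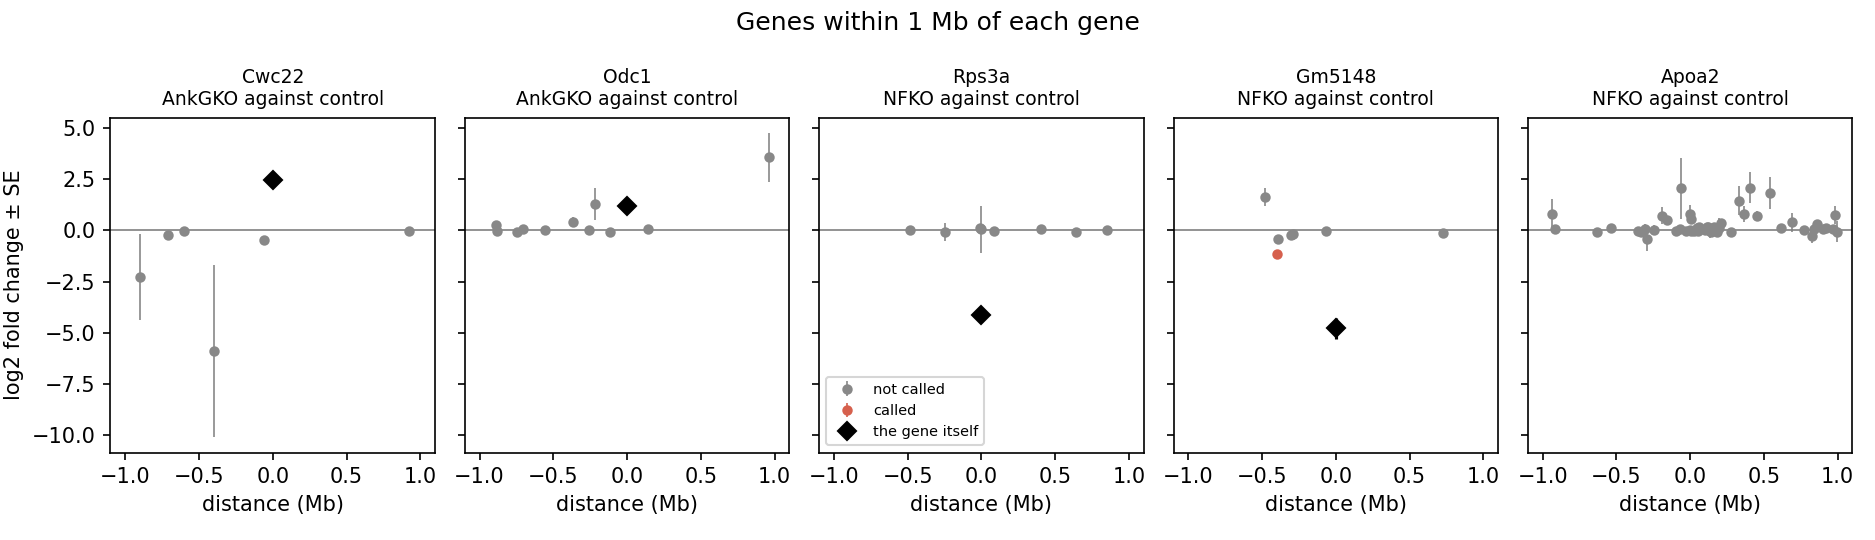
Log2 fold change with standard error (y axis) of each gene tested within 1 Mb, by distance in Mb (x axis, negative towards lower positions), with diamonds for Cwc22, Odc1, Rps3a and Gm5148 themselves. Grey points were not called and the red point is Cetn4 near Gm5148, at -1.18 in NFKO against control.

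Between Gm5148 and Rps3a, 155 genes were tested, a stretch examined after its ends were known to move together. In NFKO against control 1 of them was called, Tmem144, and it rose: 29.4 ± 0.249 CPM beside 14.4 ± 1.22 in control, a log2 fold change of 1.02 (standard error 0.10, edgeR adjusted p = 0.000377). In AnkGKO against control Gucy1a3, a subunit gene of the nitric oxide receptor, was called and fell from 62.5 ± 1.97 to 34.9 ± 5.40 CPM (log2 fold change -0.84, edgeR adjusted p = 0.00228). These are 0.645% of the genes in the stretch, beside 0.365% and 0.165% of all genes in the same comparisons. No gene of the stretch fell in both single knockouts by the test, although Rps3a and Gm5148 at its ends were low in both.

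The genes most like each of the 5 were taken by Pearson's r of log2(CPM + 0.5) over the 11 libraries, among 13909 genes (13910 for Apoa2) with a mean of at least 1 CPM, as a description. For Rps3a they were Gm5148 (r = 0.991), Exosc9 (r = 0.963) and Slc22a7 (r = 0.949), and for Gm5148 Rps3a, Exosc9 (r = 0.972) and Slc22a7 (r = 0.963). Exosc9, a subunit gene of the RNA exosome, lies 1.147 Mb from Gm5148. It was at 25.5 ± 1.25 CPM in control and 25.8 ± 0.867 in DKO but 17.55 ± 1.30 in NFKO and 18.1 ± 0.480 in AnkGKO. All 5 single-knockout libraries were thus below all 6 others. The difference from control was -0.54 on the log2 scale in NFKO (standard error 0.078) and -0.49 in AnkGKO (standard error 0.088), without a test because the gene was picked for this pattern.

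For Apoa2 the closest gene was Copa (r = 0.972), a coat protein gene of vesicles from the Golgi to the endoplasmic reticulum that lies 0.856 Mb away, followed by Serpina3f (r = 0.962) and Serpina3m (r = 0.958). Copa was at 223 ± 7.45 CPM in control and 230.4 ± 5.96 in DKO, beside 274 ± 3.63 in NFKO and 299 ± 8.99 in AnkGKO. For Cwc22 they were Mcm6 (r = 0.965), a subunit gene of the replicative helicase, Nav1 (r = 0.962) and A930005H10Rik (r = 0.954). Mcm6 was at 8.56 ± 0.856 CPM in AnkGKO and between 1.30 and 1.66 on average in the other genotypes. For Odc1 they were Gstm6 (r = 0.960), Cwc22 (r = 0.943) and Kazn (r = 0.940). All r values rest on the same 11 libraries, which fall into separate levels by genotype in these genes. By Spearman's rho 1 of the 3 closest genes was the same for Rps3a and for Odc1, and 0 for the other 3 genes.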

How the data were processed

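Tissue labelled as cerebellar hemisphere, in 11 samples, was analysed by bulk RNA sequencing of polyadenylated RNA. The submitters' processing notes name Trimmomatic 0.39, STAR 2.7.11a, DESeq2 1.40.2 and GRCm39, and the labels give single-end reads of 100 bases. The authors deposited raw read counts per gene and a normalised signal, which equalled each count divided by its library's DESeq2 size factor. The 5 lines of the count table that name no gene were left out of library sizes and tests; the line for non-unique alignments equalled 56.9% to 61.0% of the gene counts. Samples were grouped by the genotype in their labels.

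Of 22609 genes, the 17557 that reached 10 counts in total were fitted in edgeR 4.0.16 (R 4.3.3) with TMM normalisation, 1 model of 4 genotypes and robust quasi-likelihood tests, with p-values adjusted by Benjamini-Hochberg over all genes tested. A gene was called at an adjusted p under 0.05 with a log2 fold change of 0.6 or more in either direction. The p-values measure the spread between libraries labelled as biological replicates. DESeq2 1.42.0 served as an alternative, and the test code was checked on simulated counts. Counting intervals and floors cover counting error only.

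The members, pathway lists and markers were chosen with earlier results of these data known, so p-values for DKO against control and AnkGKO against NFKO are not independent evidence. None is given for Cwc22 and Odc1 in AnkGKO against NFKO, which the choice had all but fixed. Named were the 5 genes, their copies, list genes that were called or else 2 to 4 of the highest mean, called neighbours within 1 Mb, the 3 genes most like each, and the label and marker genes. Tmem144, Gucy1a3, Zfp385b, Fcgr3 and Apoc1 were named after their values were seen. Older gene symbols were matched through RefSeq synonyms. Words and copies were searched in GRCm39 with GENCODE vM39 transcripts.

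Replicate numbers were checked as pairs by correlating deviations from the group means. NFKO and control libraries of the same number gave r = 0.547, 0.444 and 0.216, so their numbers count as paired by a minimum of 0.1 set for 3 pairs, although no label says that they mark a shared litter. Other pairs of groups included values below this minimum. Alternatives were another tool, normalisation, filter, fold threshold, replicate block, Xist as covariate, and libraries left out.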

Additional observations from a re-analysis of the deposited data

Results flagged for a closer look

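For 2 listed genes, which lie 0.292 Mb apart on chromosome 17, the differences of AnkGKO and of NFKO from control were unequal, by the test of AnkGKO against NFKO. In DKO, in which Nfasc was also targeted, neither was called against control (Rnps1 at 22.9 and Rps2 at 22.3 CPM). For Rnps1 this difference was 0.92 on the log2 scale (standard error 0.088, edgeR adjusted p = 0.000674). The AnkGKO libraries held 19.8 and 21.0 CPM and the 3 NFKO libraries 9.90 to 11.6 CPM. For Rps2 it was 2.01 (standard error 0.21, edgeR adjusted p = 0.00176), with 18.6 and 19.6 CPM in AnkGKO and 3.16 to 6.47 in NFKO.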

How the results depend on the processing

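Rnps1 kept its calls under every alternative, and the calls of Rps2 held except for AnkGKO against NFKO with only the libraries compared (edgeR adjusted p = 0.0595). The directions of Cwc22, Odc1, Rps3a and Gm5148 in the single knockouts in which they stood apart from control were the same under every alternative. Rps3a in DKO against control, 0.01 on the log2 scale, changed sign to -0.079 without control replicate 1 and NFKO replicate 1, the libraries richest in cerebellar markers, to -0.079 without control replicate 1 alone and to -0.048 without DKO replicate 3, far from the threshold each time. In AnkGKO against NFKO, Rps3a passed with DESeq2 (-1.79) and without NFKO replicate 2 (-2.16), and its adjusted p ran from 0.000614 to 0.793 over the alternatives. Without 1 library its value there ran from -2.16 to -1.46, and that of DKO against control from -0.079 to 0.074.

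Genes called over all genes were, with DESeq2, 159 in NFKO against control (64 with edgeR), 102 in AnkGKO against control (29), 44 in DKO against control (4), 418 in DKO against NFKO (108), 99 in DKO against AnkGKO (30) and 199 in AnkGKO against NFKO (71). With Xist as covariate they were 31, 15, 43 and 13 in NFKO against control, AnkGKO against control, DKO against NFKO and DKO against AnkGKO. Without both marker-rich libraries they were 29 in NFKO against control, 59 in DKO against NFKO and 33 in AnkGKO against NFKO. DKO against AnkGKO gave 11 with only the libraries compared, and DKO against NFKO 69 at a fold threshold of 1. Leaving out 1 library gave 40 to 71, 18 to 35, 4 to 8, 68 to 162, 12 to 40 and 28 to 76 in the order of the first sentence. The cause was not tested.

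Listed genes called in AnkGKO against NFKO numbered 1 with only the libraries compared, and in DKO against control 1 (Apoc1) with DESeq2. Leaving out 1 library gave 0 to 1 in AnkGKO against control. Without both marker-rich libraries the log2 fold changes were -0.12 for Cwc22 in NFKO against control, -5.05 for Gm5148 in NFKO against control and 5.10 in DKO against NFKO, and with Xist as covariate 6.08 for Rps3a in DKO against AnkGKO. Without 1 library, Gm5148 ran from -10.33 to -5.31 in AnkGKO against control, 5.41 to 10.43 in DKO against AnkGKO, -5.25 to -4.30 in NFKO against control and 4.40 to 5.35 in DKO against NFKO. The values -10.33 and 10.43 rest on AnkGKO replicate 2 alone, with 0 counts, where the fitted value depends on the prior count, and -5.31 and 5.41 on AnkGKO replicate 1 alone, with 4 counts. The differences of mean CPM of Apoa2 ran from 0.427 to 0.637 in AnkGKO against control and -0.643 to -0.434 in DKO against AnkGKO. A lone AnkGKO library was assumed to vary like the other groups.

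In the fit with a replicate block, 55 genes were called in NFKO against control, where the numbers pair, and 21, 4, 85, 30 and 53 in the other comparisons, where the libraries share only a number. Of the calls given in the report for single genes, the block changed none. Cetn4 in NFKO against control lost its call with only the libraries compared (edgeR adjusted p = 0.0584), with Xist as covariate (edgeR adjusted p = 0.217) and without both marker-rich libraries (edgeR adjusted p = 0.230). Its log2 fold change was then -1.175, -1.003 and -1.137. Its call in DKO against NFKO was lost with Xist as covariate (edgeR adjusted p = 0.170) and without both marker-rich libraries (edgeR adjusted p = 0.0555). Few counts limited the fold changes of Apoa2 and, in the single knockouts, of Gm5148, where some libraries held fewer than 3 counts.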
